A study of Mus musculus with 6 samples.

Results

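The regulators of G protein signalling (RGS) considered here were 8 mouse genes, Rgs1, Rgs2, Rgs3, Rgs10, Rgs14, Rgs16, Rgs18 and Rgs19, out of 18193 genes named on the array, and they were read by 18 probe sets. The genes were taken by symbol, and the list was selected on earlier results from the same 6 arrays, in which Rgs2 and Rgs1 had stood out in the comparisons described below. Their levels and differences are therefore given as descriptions, with no p-value, and counts of calls among them support nothing further.

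The cells were regulatory T cells (Tregs), sorted as CD4+CD25+FoxP3+ by the green fluorescence of a FoxP3-GFP reporter line on a C57Bl/6 background. There were 3 groups of 2 arrays each, and every group was cultured for 18 h. WT ATL1222 cells carried the adenosine receptor A2AR (A2AR+/+FoxP3GFP) and received 10 nM of ATL1222, an agonist selective for that receptor. KO vehicle cells lacked the receptor (A2AR-/-FoxP3GFP) and received DMSO, and WT vehicle cells were A2AR+/+FoxP3GFP and received DMSO. All donors were 8 to 11 weeks old, cells of spleen and lymph nodes entered each sample, and all 3 groups carried the GFP reporter. Receptor-deficient cells with the agonist were not analysed here. The labels call the arrays biological replicates without naming animals or pools, so errors cover only the spread between these arrays. Each standard error (SE) is from a limma fit, which pools the 3 groups and moves a gene's variance towards that of similarly bright genes. An SE is therefore not the array spread of that gene alone.

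RGS proteins switch off signals from many G protein-coupled receptors. An active receptor loads the alpha subunit of its G protein with GTP. For the classes of alpha subunit that an RGS protein acts on, the RGS domain speeds the hydrolysis of that GTP. The subunit then returns to its inactive state. In lymphocytes, RGS proteins are known for limiting the response to chemokines. A2AR itself acts through the stimulatory alpha subunit, which raises cyclic AMP, and cyclic AMP activates transcription through CREB factors bound to the cyclic AMP response element (CRE).

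The promoter of Rgs2 is shown because, by the brightest probe set of each gene, Rgs2 differed most among the 8 genes in both comparisons. RefSeq sequence of assembly GRCm38.p6, from 250 bases before to 50 bases after the start of a gene, was held for 5 of the 8 genes, in 8 windows. The Rgs2 window is chr1:144004100-144004399 on the minus strand, and capitals mark the CRE half-site TGACG, read on either strand.
Rgs2 promoter: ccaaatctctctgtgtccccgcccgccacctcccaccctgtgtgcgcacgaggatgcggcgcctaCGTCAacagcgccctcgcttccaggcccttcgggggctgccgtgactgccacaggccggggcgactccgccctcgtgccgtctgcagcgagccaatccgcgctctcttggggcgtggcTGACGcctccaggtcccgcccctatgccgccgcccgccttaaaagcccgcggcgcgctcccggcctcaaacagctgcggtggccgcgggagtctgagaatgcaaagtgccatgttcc
The half-sites began 185 and 67 bases before the start. The full element TGACGTCA, which contains the half-site, was absent from all 8 windows, and the AP-1 motif TGANTCA was absent too. Rgs2 was the 1 gene of the 5 with a half-site in its window, and the windows of Rgs16, Rgs3 (2 windows), Rgs10 and Rgs19 (3 windows) had none. No window was held for Rgs1, Rgs14 or Rgs18, so these genes could not be read. Among 32851 promoter windows of the same length, 20.8% held the half-site, 1.79% the full element and 7.81% the AP-1 motif. A match is a description of letters and does not show that a factor binds there.

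The deposited signals had equal trimmed means on the 6 arrays, as after global scaling, and array medians ran from 74.68 to 98.17. Across the 10916 genes bright enough to be fitted, arrays of the same group correlated with r of 0.958 to 0.967 and arrays of different groups with r of 0.953 to 0.971. The 3' to 5' signal ratio, a sign of RNA integrity, ran from 1.21 to 1.45 for Gapdh and from 1.93 to 2.53 for Actb. Of 11 Treg and T cell markers 10 were above the limit for dim genes, a signal of about 71.2. The exception was Foxp3, the gene behind the sort, whose signal was 7.18 to 53.5 over the 6 arrays. Ikzf2, the Helios gene, was at 6810 to 8431, and the T cell receptor chain Cd3d at 13499 to 16667. The summed signal of these 11 markers was 54207 and 48401 in WT ATL1222, 50224 and 45238 in KO vehicle, and 55098 and 45480 in WT vehicle.

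Rgs2 accelerates GTP hydrolysis, with a preference for the alpha subunits of the Gq class. Its brightest probe set (1419248_at) had signals of 12115 and 12894 in WT ATL1222, 1592 and 1285 in KO vehicle, and 4051 and 3255 in WT vehicle. The 3 groups did not overlap, with the agonist arrays highest and the receptor-deficient arrays lowest. With ATL1222 the mean was 12504 ± 551, against 3653 ± 563 in WT vehicle (SD, n = 2 each), a 3.43-fold higher level on the log2(signal + 16) scale (log2 difference 1.78 ± 0.15 SE). Without the receptor the mean was 1439 ± 217 (SD, n = 2), a 2.52-fold lower level than in WT vehicle (log2 difference -1.33 ± 0.15 SE). Within the arrays numbered 1 and 2, the agonist differences were 1.58 and 1.98, and the knockout differences -1.34 and -1.33, all in log2. Since these arrays hold mixtures of cells, fewer cells that express a gene and less RNA per cell cannot be told apart.

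**Figure D1:**
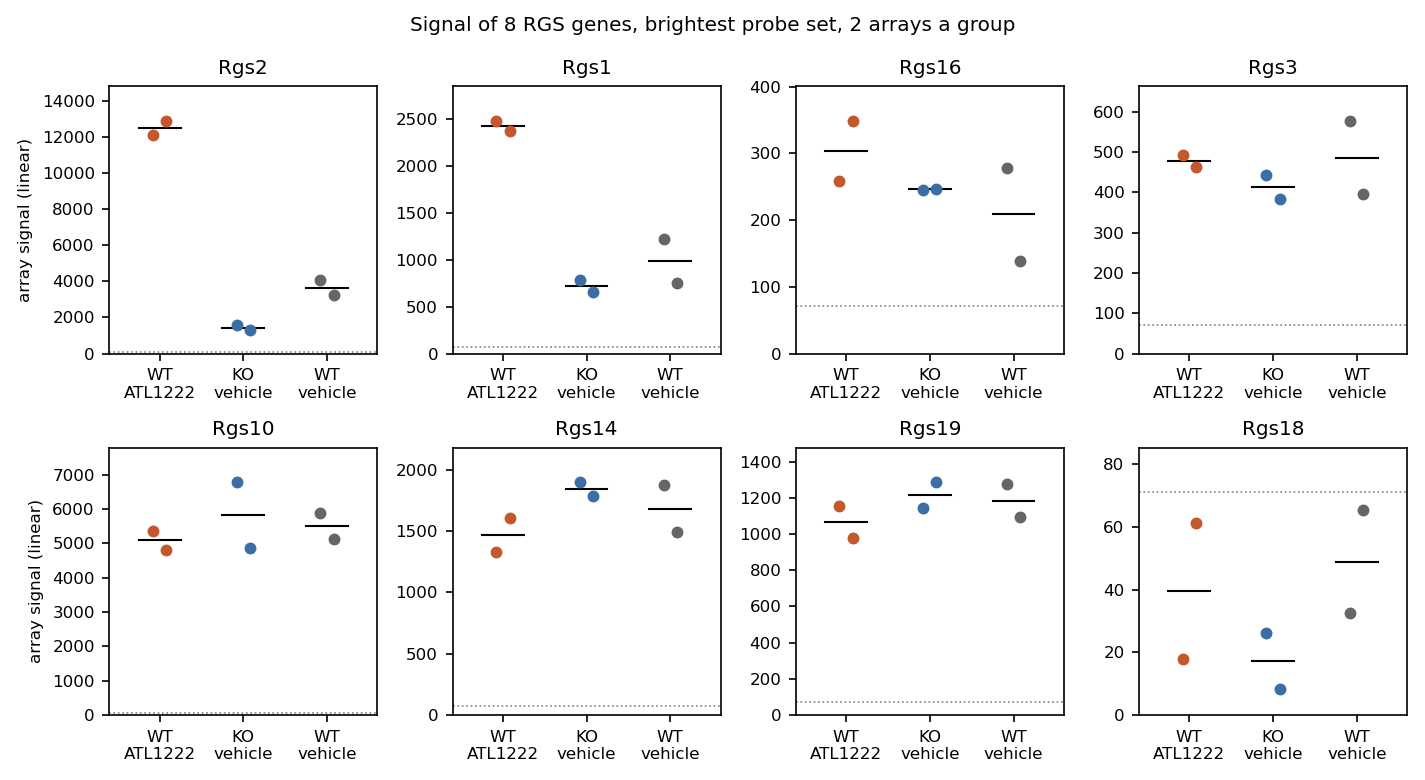
Array signal (linear scale from 0, arbitrary units) of the 8 RGS genes in WT ATL1222, KO vehicle and WT vehicle Tregs. Points are single arrays, 2 a group, black lines are group means, and the dotted line is the limit for dim genes at 71.2. Rgs2 separates all 3 groups, Rgs1 separates WT ATL1222 from the others, and Rgs18 stays below the limit on all 6 arrays.

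Other probe sets of Rgs2 showed the same order of groups. Probe set 1419247_at had 8134 and 10103 in WT ATL1222, 871 and 1138 in KO vehicle, and 1985 and 2456 in WT vehicle. Probe set 1447830_s_at had 5940 and 5691 in WT ATL1222, 689 and 600 in KO vehicle, and 1534 and 1216 in WT vehicle. The groups were again separate on both. In a fit of single probe sets, their log2 differences were 2.03 ± 0.17 and 2.08 ± 0.16 SE with the agonist and -1.14 ± 0.17 and -1.07 ± 0.16 SE in the knockout. The fourth probe set, 1443250_at, was dim, at 63.2 and 71.3 in WT ATL1222, 65.8 and 7.17 in KO vehicle, and 32.7 and 64.8 in WT vehicle, and its groups overlapped. Probe sets of a gene share the same RNA and are not replicates.

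**Figure D2:**
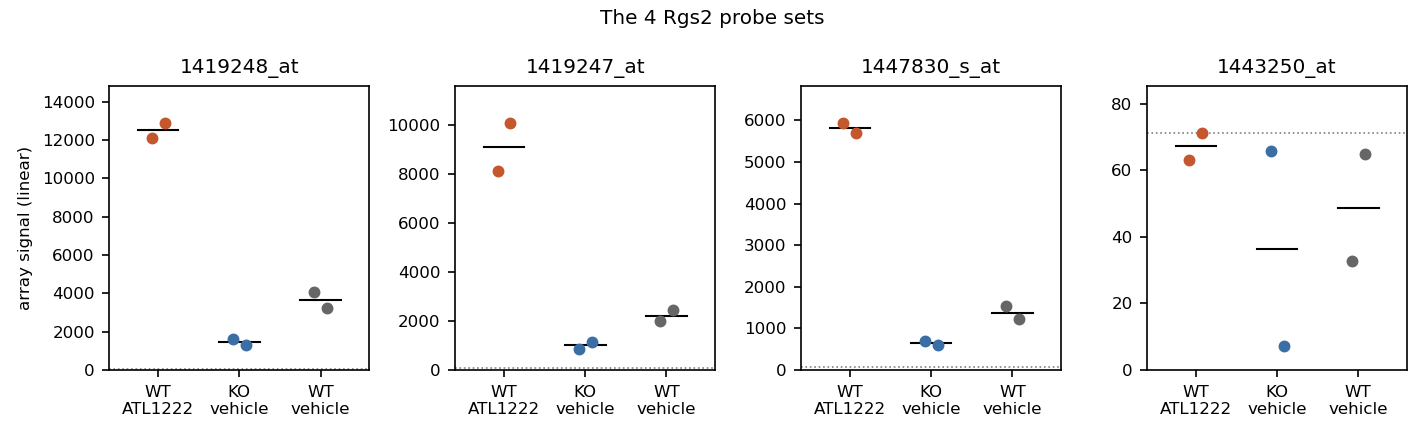
Array signal (linear scale from 0, arbitrary units) of the 4 Rgs2 probe sets in WT ATL1222, KO vehicle and WT vehicle Tregs. Points are single arrays, black lines are group means, and the dotted line is the limit for dim genes. On 3 probe sets WT ATL1222 is highest and KO vehicle lowest with no overlap, and on 1443250_at the highest value is 71.3.

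Rgs1 acts on the Gi and Gq classes and is known to restrain chemokine signalling in lymphocytes. Its 1 probe set (1417601_at) had signals of 2481 and 2376 in WT ATL1222, 788 and 660 in KO vehicle, and 1216 and 751 in WT vehicle. The agonist arrays were above all others, and the KO vehicle and WT vehicle arrays overlapped. The mean was 2429 ± 74.1 with ATL1222, against 983.5 ± 329 in WT vehicle (SD, n = 2 each), a 2.51-fold higher level (log2 difference 1.33 ± 0.20 SE). In KO vehicle it was 723.7 ± 90.3 (SD, n = 2), with a log2 difference from WT vehicle of -0.40 ± 0.20 SE. Within the arrays numbered 1 and 2 the agonist differences were 1.02 and 1.64 and the knockout differences -0.62 and -0.18. WT vehicle was the group in which Rgs1 varied most, and the knockout difference lay between -0.74 and -0.06 when single arrays were left out.

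Rgs16, which acts on Gi and Gq subunits and is known in T cells for effects on migration, was read by 3 probe sets. The brightest (1455265_a_at) had signals of 259 and 348 in WT ATL1222, 245 and 247 in KO vehicle, and 278 and 139 in WT vehicle. The WT vehicle arrays enclosed both KO vehicle values and overlapped the agonist arrays. Its log2 differences were 0.57 ± 0.30 SE with the agonist and 0.29 ± 0.30 SE in the knockout. The second probe set (1426037_a_at) gave 0.50 ± 0.39 and -0.21 ± 0.39 SE in the same order, with overlapping groups. The third (1451452_a_at) was at 27.7 to 93.4 and too dim to be fitted, with the KO vehicle arrays (73.8 and 93.4) above those of WT vehicle (36.5 and 70.6). Within the arrays numbered 1 and 2 the agonist difference of the brightest probe set was -0.10 and 1.23, so its sign was not shared.

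Rgs3, another regulator of Gi and Gq subunits, had 4 probe sets. The brightest (1425296_a_at) had signals of 492 and 462 in WT ATL1222, 444 and 383 in KO vehicle, and 578 and 396 in WT vehicle. WT vehicle arrays spanned the agonist arrays and overlapped the knockout arrays, with log2 differences of 0.00 ± 0.21 SE and -0.21 ± 0.21 SE. The next 2 probe sets (1449516_a_at and 1425701_a_at) had log2 differences of -0.22 and 0.01 with the agonist and -0.25 and -0.01 in the knockout. On the first of these the agonist arrays (255 and 279) lay below those of WT vehicle (334 and 295), and the other groups overlapped. The dimmest (1454026_a_at) differed from these: it had 77.7 and 80.5 in KO vehicle, against 16.4 and 6.41 in WT vehicle, and 31.1 and 19.8 in WT ATL1222. Both other groups were separate from WT vehicle on it. Only its KO vehicle arrays were above the limit for dim genes, and it was not fitted. With the 4 probe sets averaged, the knockout difference of Rgs3 was 0.34, opposite in sign to that of the brightest probe set.

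The members of the R12 subfamily were close across the groups. Rgs10, a small protein selective for Gi, had signals of 5371 and 4803 in WT ATL1222, 6773 and 4868 in KO vehicle, and 5886 and 5116 in WT vehicle. Rgs14, which joins an RGS domain to a motif that binds inactive Gi subunits and to Ras-binding domains, had 1329 and 1607 in WT ATL1222, 1898 and 1784 in KO vehicle, and 1873 and 1492 in WT vehicle. Groups of both genes overlapped in each comparison. Their log2 differences were -0.11 ± 0.16 and -0.19 ± 0.16 SE with the agonist, and 0.07 ± 0.16 and 0.14 ± 0.16 SE in the knockout.

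Rgs19, a membrane-bound regulator of Gi subunits from the RZ subfamily, was likewise close across groups. Its brightest probe set (1417786_a_at) had signals of 1156 and 979 in WT ATL1222, 1146 and 1286 in KO vehicle, and 1277 and 1093 in WT vehicle. The log2 differences were -0.15 ± 0.16 SE with the agonist and 0.04 ± 0.16 SE in the knockout. A second probe set (1434940_x_at), of a kind in which some probes may bind other transcripts, gave -0.05 ± 0.17 and 0.03 ± 0.17 SE. Groups overlapped on both probe sets in each comparison.

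Rgs18, known from platelets and megakaryocytes, was dim. Its brighter probe set (1420398_at) had signals of 18.0 and 61.4 in WT ATL1222, 26.2 and 8.42 in KO vehicle, and 32.4 and 65.4 in WT vehicle. The other (1449856_at) ranged from 6.92 to 43.2. Both lay below the limit of 71.2 on all 6 arrays, so Rgs18 was not fitted and its differences are plotted without being read. Of the platelet and megakaryocyte markers, 7 of 9 were on the array and 3 were above the limit. Their summed signal was 365.0 and 675.5 in WT ATL1222, 604.6 and 455.8 in KO vehicle, and 507.0 and 628.6 in WT vehicle. Itga2b, the brightest of these markers, was at 172.7 to 271.9, while Treml1 reached 157.3 and Gp1bb 128.1. The platelet genes Ppbp and Pf4 were at most 34.0 and 55.6.

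**Figure D3:**
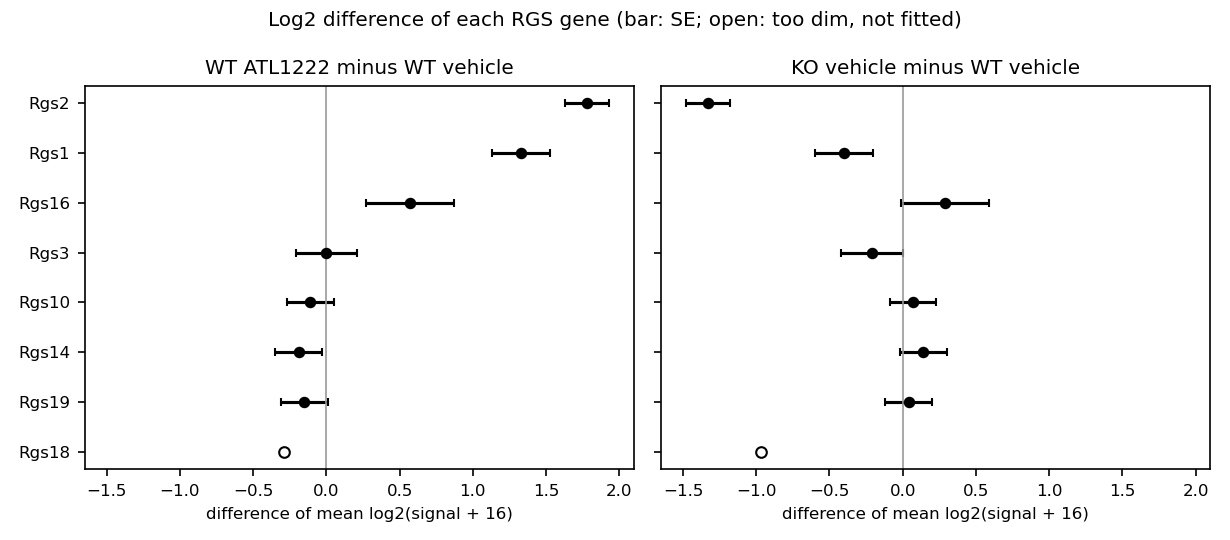
Difference of mean log2(signal + 16) for each RGS gene, WT ATL1222 minus WT vehicle on the left and KO vehicle minus WT vehicle on the right. Filled points are fitted values with bars of 1 standard error, and the open points of Rgs18 were too dim to be fitted. Rgs2 lies at 1.78 and -1.33, Rgs1 at 1.33 and -0.40, and the other 5 fitted genes lie between -0.21 and 0.57.

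Of the 8 genes, 7 were bright enough to enter the fit over all genes. With the agonist 2 of these 7 passed the threshold (Rgs2 and Rgs1, both higher; limma, Benjamini-Hochberg adjusted p under 0.05), where 0.211% of the 10916 genes tested passed in either direction. In the knockout 1 of 7 passed (Rgs2, lower), where 0.0275% of all genes tested passed. The genes were selected on these contrasts, so the shares are set side by side and nothing is read from them. Groups did not overlap for 2 of the 7 genes with the agonist (30.8% of all genes tested) and for 1 of 7 in the knockout (29.6%). The 7 genes had a median log2 difference of 0.00 with the agonist, against -0.01 over all genes, and of 0.04 in the knockout, against 0.00 over all genes. These medians moved with single arrays. With the agonist the median was 0.26 without WT vehicle replicate 1 and -0.21 without WT vehicle replicate 2. In the knockout it was -0.17 without KO vehicle replicate 1 and also -0.17 without WT vehicle replicate 2. Besides Rgs2 and Rgs1, the 5 fitted genes ran from -0.19 to 0.57 with the agonist and from -0.21 to 0.29 in the knockout. The call of Rgs2 in the knockout was lost without the mean-variance trend, with the probe sets of a gene averaged and with every probe set tested separately. Its call with the agonist was lost without the trend, but not under the other 2 settings. The call of Rgs1 with the agonist was lost under all 3 settings. It was also lost when replicate 2 of WT vehicle, or either replicate of WT ATL1222, was left out, which left 1 called gene in place of 2 each time.

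Signals of other cell types were read beside these values, since Rgs1 is also expressed by B cells. Of 10 B cell markers 8 were on the array and 5 above the limit. Their summed signal was 4988 and 5046 in WT ATL1222, 7903 and 7754 in KO vehicle, and 8254 and 7164 in WT vehicle. The sum was therefore lower on the agonist arrays. Most of it was Ighm, at 4198 to 7539, while Cd79a reached 77.7 and Cd79b 258.7. Whether the other B cell markers differed between groups was not read apart from Ighm. Of 9 myeloid markers 1 was above the limit, and the sums were 480.4 and 455.4 in WT ATL1222, 386.2 and 533.8 in KO vehicle, and 308.0 and 567.0 in WT vehicle. Of 7 CD8 T and NK cell markers 6 were on the array, 2 above the limit, with sums of 441.3 and 465.5 in WT ATL1222, 513.0 and 674.2 in KO vehicle, and 402.1 and 403.5 in WT vehicle. The CD8 T and NK cell sums were higher in each of the other groups than in WT vehicle. Of 7 dendritic cell markers 6 were on the array and 1 above the limit, and their sums ran from 248.5 to 382.9 over the 6 arrays. Of 4 erythroid markers 2 were on the array and 0 above the limit. No marker read was listed at 0, and the part of these cells in the RGS values was not tested.

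The rest of the G protein signalling machinery was read from 7 lists of 96 genes. Of these, 89 were on the array and 62 bright enough to be fitted. By limma 0 of the 62 passed the threshold in either comparison, and 11 with the agonist and 3 in the knockout had an unadjusted p under 0.05. Over all 10916 genes tested these counts were 549 and 425. The share was thus larger among the 62 than over all genes with the agonist, and close to it in the knockout. The lists were chosen with earlier results of these data known, so nothing is read from these shares. The median log2 difference of the 62 genes was 0.02 with the agonist and -0.06 in the knockout. With the replicate number as a block, 2 of the 62 passed with the agonist (Ccr7 and Gna13, both higher) and 0 in the knockout. Ccr7 alone passed in 7 other alternatives, among them both normalizations between arrays.

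Of 16 further RGS genes and RGS-binding proteins, 13 were on the array and 3 bright enough to be fitted, Rgs5, Rgs9 and Rgs20. Rgs9, best known from photoreceptors and the striatum, had signals of 351 and 359 in WT ATL1222, 261 and 302 in KO vehicle, and 296 and 250 in WT vehicle. Its agonist arrays were above the others, but it did not pass (log2 difference 0.36 ± 0.22 SE, limma adjusted p = 0.998). Rgs5 was at 84.3 and 84.1 in WT ATL1222, 79.8 and 93.0 in KO vehicle, and 115 and 121 in WT vehicle, and did not pass in the knockout (log2 difference -0.39 ± 0.39 SE, limma adjusted p = 1.00). Of 9 other proteins with an RGS homology domain, all 9 were fitted and 0 passed. Their smallest p belonged to the sorting nexin Snx13 with the agonist (log2 difference 0.26 ± 0.14 SE, limma adjusted p = 0.998) and to Arhgef12 in the knockout (-0.48 ± 0.19 SE, limma adjusted p = 1.00).

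Among 15 alpha subunits of G proteins, 11 were fitted. Gna13, the alpha subunit of G13, had signals of 3309 and 2870 in WT ATL1222, 2164 and 1994 in KO vehicle, and 2334 and 2017 in WT vehicle. It was nearest to the threshold with the agonist (log2 difference 0.50 ± 0.14 SE, limma adjusted p = 0.401). In the knockout the smallest p was that of the dim Gnao1 (log2 difference -0.98 ± 0.49 SE, limma adjusted p = 1.00). Of 17 beta and gamma subunits 9 were fitted, with Gng12 at -0.65 ± 0.24 SE with the agonist (limma adjusted p = 0.740) and Gnb4 at -0.38 ± 0.19 SE in the knockout (limma adjusted p = 1.00).

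Receptor kinases and arrestins, which silence the receptor itself, numbered 8, of which 5 were fitted. Arrb1, encoding beta-arrestin 1, had the smallest p in both comparisons, at 0.21 ± 0.19 SE with the agonist (limma adjusted p = 0.998) and -0.22 ± 0.19 SE in the knockout (limma adjusted p = 1.00). All 6 other G protein modulators were fitted. The smallest p were those of Gpsm2, which binds inactive Gi subunits, with the agonist (0.64 ± 0.40 SE, limma adjusted p = 0.998) and of the alpha subunit chaperone Ric8b in the knockout (0.32 ± 0.29 SE, limma adjusted p = 1.00).

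Of 25 G protein-coupled receptors of T cells, 19 were fitted. Ccr7, the receptor that guides T cells to lymph nodes, had signals of 6288 and 7048 in WT ATL1222, 4120 and 3542 in KO vehicle, and 4264 and 3815 in WT vehicle. The agonist arrays were above the rest, and the gene narrowly missed the threshold (log2 difference 0.72 ± 0.14 SE, limma adjusted p = 0.0534). The lysophospholipid receptor gene P2ry10 had the smallest p in the knockout (log2 difference -0.51 ± 0.15 SE, limma adjusted p = 1.00). Its signals were 12098 and 10953 in WT ATL1222, 5099 and 6601 in KO vehicle, and 9045 and 7523 in WT vehicle. These groups did not overlap, and P2ry10 did not pass with the agonist either (log2 difference 0.48 ± 0.15 SE, limma adjusted p = 0.586).

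**Figure D4:**
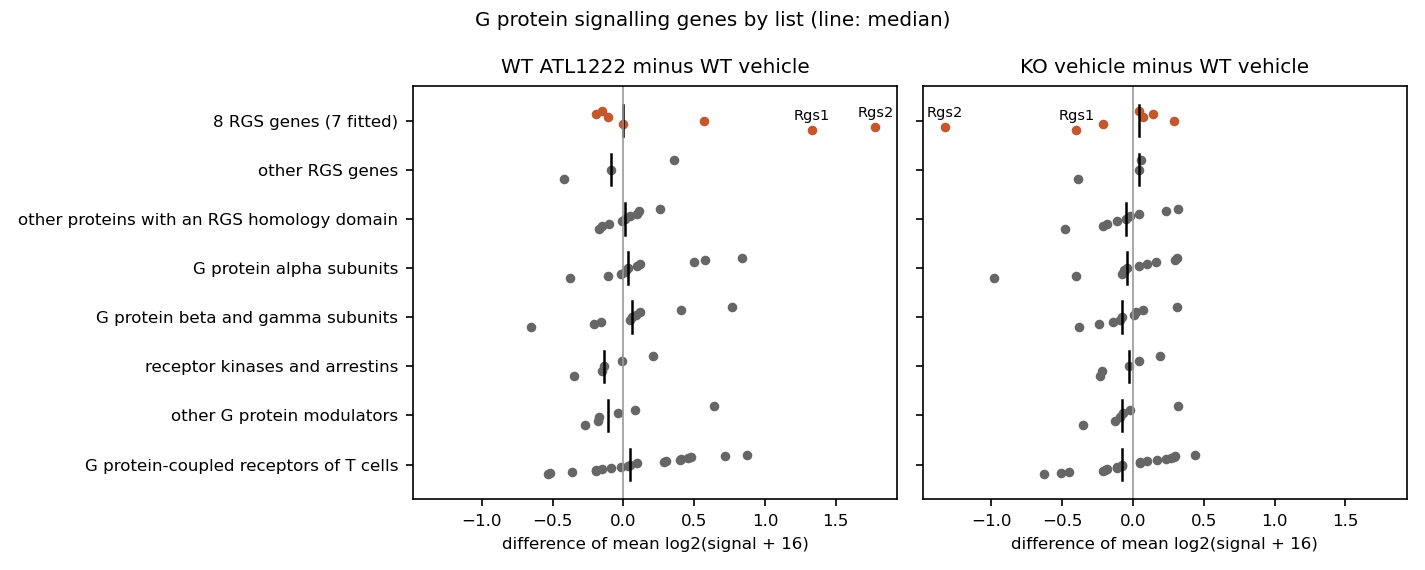
Difference of mean log2(signal + 16) for the fitted RGS genes (orange) and the fitted genes of 7 G protein signalling lists (grey), WT ATL1222 minus WT vehicle on the left and KO vehicle minus WT vehicle on the right. Each point is 1 gene and black lines are list medians, from -0.14 to 0.06 with the agonist and from -0.08 to 0.04 in the knockout for the 7 lists. Rgs2 and Rgs1 lie outside the range of the grey points with the agonist, and Rgs2 in the knockout. The RGS genes were selected on these contrasts, so nothing is read from this position.

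Rgs2, Rgs1 and Rgs18 lie in 1 cluster of RGS genes on chromosome 1. In the order of the RefSeq annotation of protein-coding genes, Rgs2 is followed by Rgs13, Rgs1, Rgs21 and Rgs18. Rgs13, a gene of germinal centre B cells, was dim, and Rgs21 had no probe set named for it here. With 5 protein-coding genes added on each side, 15 genes were read, of which 7 besides Rgs2 and Rgs1 were fitted. By limma 0 of these 7 (Cdc73, Glrx2, Ro60, Uchl5, Ptgs2, Pdc and Odr4) passed. Their log2 differences ran from -0.62 to 0.15 with the agonist and from -0.56 to 0.03 in the knockout. Uchl5, next to Rgs2, was at -0.07 ± 0.18 and -0.14 ± 0.18 SE.

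Over the 6 arrays, the genes whose log2 values followed Rgs2 most closely were Crem (Pearson r = 0.995), Rnf157 (0.995), Fos (0.994), Matk (0.993) and Selenot (0.993). Crem, a cyclic AMP-responsive transcription factor gene, had signals of 6797 and 5925 in WT ATL1222, 566 and 462 in KO vehicle, and 2093 and 1273 in WT vehicle. Rnf157, with the same r, had 1365 and 1355 in WT ATL1222, 270 and 228 in KO vehicle, and 473 and 435 in WT vehicle. Fos, a subunit of AP-1, had 401 and 381 in WT ATL1222, 149 and 116 in KO vehicle, and 232 and 193 in WT vehicle. Selenot followed the same order within a narrow range, from 2318 to 2627. The genes closest to Rgs1 were Rell1 (r = 0.998), Fth1 (0.997), Creb3l2 (0.996), Stat5a (0.996) and H2az1 (0.996). Rell1 had 1631 and 1614 in WT ATL1222, 1041 and 916 in KO vehicle, and 1207 and 994 in WT vehicle. Creb3l2, a relative of the CREB factors, had 777 and 682 in WT ATL1222, 268 and 248 in KO vehicle, and 422 and 280 in WT vehicle, so its KO vehicle arrays, unlike those of Rgs1, did not overlap the WT vehicle arrays. Rgs1 and Rgs2 themselves had r = 0.958. The other 5 fitted RGS genes had r with Rgs2 from -0.68 for Rgs14 to 0.48 for Rgs3. These are descriptions over 6 arrays in 3 groups, picked as the highest of 10916, and the arrays share their scaling.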

How the data were processed

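RNA of sorted Tregs was measured on 6 one-colour Affymetrix arrays, 2 in each of 3 groups. The authors deposited linear intensities for 45101 probe sets, with trimmed means that agree between arrays, and used GCOS per the submitters' processing notes. How GCOS summarized probes, and its version, is not given in the sources used here. No further normalization was applied.

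Here 64 control probe sets were left out, 34945 had 1 gene symbol, 932 had several and 9160 none; symbols were updated through Entrez identifiers (34741 matched, GRCm38.p6, used for names, chromosomes and gene order). Each gene took its brightest probe set, values were log2(signal + 16), which understates the change of dim genes, and the lowest 40% of genes by mean were left out (log2 below 6.45). limma 3.58.1 in R 4.3.3 fitted all 6 arrays with a mean-variance trend; p-values were adjusted by Benjamini-Hochberg over 10916 genes at 0.05. The single probe set fit covered 20967 probe sets. The median standard error was 0.231, and the number of arrays limits precision. The fit was also run on simulated data with independent arrays and a spread set by mean signal alone. The simulation left out deviations shared by same-numbered arrays and spread particular to a gene. Nothing is read from it about the calls given here.

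Same-numbered arrays deviated together (r of 0.147 to 0.230 between groups over all genes fitted). The poly-A controls Lys, Phe and Thr were brighter on replicate 1 (ratios from 1.41 to 2.21), the Dap controls less so (1 to 1.43). The number was therefore tried as a block, as an alternative. The main fit left it out, so the standard errors and p-values given here are unpaired. The block gave 79 called genes in place of 23 with the agonist and 9 in place of 3 in the knockout.

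Members and lists were chosen with earlier results of these data known. Named were all members, of each list the genes past the threshold or else those with the smallest p, the 5 closest patterns, and the brightest and dimmest markers; chromosomal neighbours and further markers were added after the data were seen. The receptor's own transcript was not analysed here, and the knockout therefore rests on the labels.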

Additional observations from a re-analysis of the deposited data

How the results depend on the processing

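The counts of calls, the log2 differences of the 8 members and the median of those fitted were recomputed under 17 alternatives. The other values, among them the correlations, marker sums, neighbours and pathway medians, were not. The Rgs2 log2 difference kept its sign in all 17, from 1.57 to 1.94 with the agonist and from -1.49 to -1.02 in the knockout. That of Rgs1 also did, from 0.99 to 1.67 and from -0.74 to -0.06. Several of the 17 leave a difference unchanged by construction. They are both filters, the dropped trend, the block, separate probe sets, the 4 arrays alone and left-out arrays of the third group. For Rgs1, with its 1 probe set, averaging is another. A kept sign is no check in those settings. In the agonist comparison the 2 called members became 1 when the probe sets of a gene were averaged, 1 when each was tested separately, 0 when the variance trend was dropped, and 1 to 2 when single arrays were left out. In the knockout the 1 called member became 0 under each of these 3 settings; when single arrays were left out it was 1. The log2 difference of Rgs1 with the agonist, from its 1 probe set, stayed at 1.33 under all 3 settings. That of Rgs2 in the knockout stayed at -1.33 without the trend and with each probe set tested separately. These calls were thus lost with the differences unchanged, and the cause was not tested further. The replicate block changed no call of a member. For the 62 genes of the pathway lists, 0 calls with the agonist became 2 with the replicate block, 1 with a pseudocount of 64, 1 with the lowest 60% of genes left out, 1 after cyclic loess, 1 after quantile normalization, 1 with only the 4 arrays of the comparison, and 0 to 1 when single arrays were left out (Ccr7 without either KO vehicle array). In the knockout they were 0 in all 17. The count over all genes with the agonist was 3 when probe sets were averaged, 0 when the trend was dropped, 14 with no filter, 36 with the 60% filter, 35 after cyclic loess, 44 with only the 4 arrays and 5 to 39 when single arrays were left out. In the knockout it was 0 when probe sets were averaged, tested separately or fitted without the trend, 9 with the block and 3 to 7 when single arrays were left out. With 2 arrays a group, differences of the size seen for Rgs3, Rgs10, Rgs14, Rgs16 and Rgs19 were within about 2 standard errors of 0, which does not show that these genes were unaltered, and signals under the limit for dim genes, as for Rgs18, allow no comparison.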
